A study of Mus musculus with 26 samples.

Results

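A set of 10 germline genes was followed in mouse embryonic stem cells (ESCs), where they are normally held silent: Ddx4, Mael, Tdrd1, Tdrd5 and Piwil2 of the piRNA pathway, Sycp1, Sycp3 and Hormad1 of meiotic chromosomes, the RNA-binding regulator Dazl and the testis mitochondrial carrier Slc25a31. Each gene was represented in each table by the region that shared most bases with the 1.5 kb either side of a RefSeq start site (mm10, the GRCm38 assembly). All 10 genes had a region in at least 1 of the 12 tables, and all 10 had one in the E14 table of K27-K4 regions, which holds 36235 regions in all. The question put to them was whether their H3K4me3 or their sequential ChIP (reChIP) signal depends on Dppa2 and Dppa4.

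In a reChIP, chromatin is precipitated with a first antibody, eluted and precipitated again with a second, to enrich fragments that carry both marks. K4-K27 is H3K4me3 followed by H3K27me3, K27-K4 is the reverse order, and the total H3K4me3 and total H3K27me3 libraries come from chromatin set aside after the first precipitation. The 26 libraries come from E14, an established mouse ESC line cultured in serum and LIF and profiled in 2 biological replicates, and from wild-type (WT) clones 57 and 58 of that line and Dppa2/4 double knockout (DKO) clones 43 and 53, each profiled once per ChIP. One IgG–IgG reChIP was made in E14 replicate 1 and one in WT clone 57. Each knockout library is thus 1 clone, and both marks were read in bulk chromatin, in which fewer cells carrying a mark and less of it in every cell cannot be told apart. E14 replicate 1, E14 replicate 2 and the clones were sequenced as 3 batches, so the E14 line was not compared with the clones.

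The deposited values are log2 read counts scaled to library size and region length (log2 RPM per kb), without subtraction of IgG–IgG. WT clone 58 and the DKO clones have no IgG–IgG library. A value of theirs below the IgG–IgG of WT clone 57 does not by itself show a loss to background. Between 6741244 and 47903462 reads stood behind a library, with a median of 16875026. Over the 36235 regions, the median value of WT clone 57 in total H3K4me3 was 0.85 and that of WT clone 58 was 0.16, against 0.24 and 0.17 in DKO clones 43 and 53, so the WT clones differed more from each other than the medians of the genotypes did. The promoters of the ESC markers Pou5f1, Nanog, Sox2, Zfp42 and Esrrb carried total H3K4me3 in all 4 clones, at values between 0.97 and 3.06 per clone on the regions of the WT and DKO tables, and none of the 5 was called different between genotypes. In K4-K27 all 5 also had a region in these tables, with values between 1.21 and 3.44, although only Esrrb had one in total H3K27me3 and in K27-K4, so K4-K27 signal was also present at promoters with no region of total H3K27me3. The promoters of Dppa2 and Dppa4 kept total H3K4me3 in DKO clones (differences of 0.37 and 0.10), and a histone mark at the promoter does not report on the deletion itself.

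Bivalent chromatin carries the activating mark H3K4me3 and the repressive mark H3K27me3 on the same nucleosomes, and in ESCs it is found at CpG-rich promoters of genes that are silent but can be switched on later. DPPA2 and DPPA4 are small chromatin-binding proteins of pluripotent cells and early embryos that are known for maintaining this state at a subset of promoters. Germline genes are kept silent in ESCs and in somatic tissue by several layers, among them DNA methylation and a Polycomb complex whose subunits MGA with MAX and E2F6 recognise an E-box and an E2F-type site in their promoters.

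The sequences around the start sites show what these promoters have in common. Promoter sequences (RefSeq, GRCm38.p6) were available here for 9 of the 10 genes, each with 250 bases before and 50 after the start. Piwil2 has RefSeq start sites, but its sequence was missing from the set of promoters used. Capitals mark CACGTG, an E-box that reads the same on both strands, and TCCCGC or its reverse complement GCGGGA, an E2F-type motif, and the 2 motifs do not overlap in these sequences. Ddx4 and Sycp1 are shown because their reChIP signal fell most in DKO clones, and Sycp3 and Tdrd5 because theirs was not called different.
Ddx4, chr13:112652261-112652560, minus strand: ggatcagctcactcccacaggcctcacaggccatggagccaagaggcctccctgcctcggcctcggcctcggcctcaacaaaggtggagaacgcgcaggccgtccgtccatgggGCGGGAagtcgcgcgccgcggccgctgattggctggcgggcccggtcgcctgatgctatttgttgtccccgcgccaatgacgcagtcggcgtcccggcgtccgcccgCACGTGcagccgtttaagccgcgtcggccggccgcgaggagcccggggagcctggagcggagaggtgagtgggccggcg
Sycp1, chr3:102936051-102936350, minus strand: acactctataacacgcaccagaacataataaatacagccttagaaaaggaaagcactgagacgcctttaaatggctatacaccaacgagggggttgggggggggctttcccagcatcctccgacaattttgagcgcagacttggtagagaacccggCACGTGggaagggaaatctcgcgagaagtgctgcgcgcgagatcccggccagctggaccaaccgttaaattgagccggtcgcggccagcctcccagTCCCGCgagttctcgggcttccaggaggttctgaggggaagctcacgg
Sycp3, chr10:88459337-88459636, plus strand: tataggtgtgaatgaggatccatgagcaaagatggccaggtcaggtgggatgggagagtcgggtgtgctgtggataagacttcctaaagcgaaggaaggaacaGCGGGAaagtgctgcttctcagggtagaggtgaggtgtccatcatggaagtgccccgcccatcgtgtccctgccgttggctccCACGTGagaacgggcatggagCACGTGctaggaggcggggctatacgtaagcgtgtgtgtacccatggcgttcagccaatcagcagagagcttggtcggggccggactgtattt
Tdrd5, chr1:156303299-156303598, minus strand: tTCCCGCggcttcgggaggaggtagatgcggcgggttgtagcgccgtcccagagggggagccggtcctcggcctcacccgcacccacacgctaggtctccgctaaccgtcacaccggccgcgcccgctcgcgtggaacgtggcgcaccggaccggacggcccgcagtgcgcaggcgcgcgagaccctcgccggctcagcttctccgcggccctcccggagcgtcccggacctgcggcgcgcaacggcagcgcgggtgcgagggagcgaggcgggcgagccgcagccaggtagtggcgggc

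CACGTG was present in the promoters of 7 of the 9 genes (Ddx4, Hormad1, Mael, Slc25a31, Sycp1, Sycp3 and Tdrd1), and in 7.15% of 32817 RefSeq promoters of the same length. TCCCGC on either strand was present in 7 of the 9 (all but Dazl and Tdrd1), and in 20% of the promoters. Both motifs stood in the promoters of Ddx4 and Sycp1 and also in that of Sycp3, while Tdrd5 had only the E2F-type motif. The promoters were rich in CpG, with an observed over expected ratio of 0.98 at Ddx4, 0.87 at Sycp1, 0.67 at Sycp3 and 1.11 at Tdrd5, where the median of the promoters was 0.38. A motif match describes letters in a window and is not a binding site. Over the wider E14 K27-K4 regions, which each spanned a start site, CpG density ranged from 18.6 CpG per kb at Piwil2 to 49.2 at Dazl, around a median of 21.4 over all regions of that table.

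In E14 cells the germline promoters carried reChIP signal in both orientations, while only 2 and 3 of the 10 genes were over 1 log2 unit above IgG–IgG in total H3K4me3 (replicates 1 and 2), beside 39.7% and 47.3% of the 36235 regions, and 3 and 3 in total H3K27me3, beside 18.3% and 17.7%. The study describes these total libraries as noisier, likely because of their low starting material. A low total value therefore does not show that a mark is absent. In the K27-K4 reChIP all 10 genes lay above IgG–IgG by more than 1 log2 unit in both replicates, as did 62.4% and 94.2% of all regions, from 1.10 (Sycp3) to 2.38 (Tdrd5) in replicate 1 and from 2.03 (Dazl) to 3.69 (Ddx4) in replicate 2. In the K4-K27 reChIP all 10 were also above it, from 0.29 (Piwil2) to 2.56 (Tdrd5) in replicate 1 and from 1.24 (Dazl) to 2.67 (Tdrd5) in replicate 2. Those over 1 log2 unit were 7 and 10 genes, beside 37.3% and 69.7% of all regions. Replicate 2 was set against the IgG–IgG of replicate 1. The regions of the table were chosen for K27-K4 signal in these libraries, and their own medians were 1.28 and 2.09 in K27-K4 and 0.61 and 1.45 in K4-K27. Counting a gene as marked in both orientations at a mean of at least 1 log2 unit above IgG–IgG, 8 of 10 genes were marked, beside 48.3% of all regions of the table, and Piwil2 and Sycp3 fell short in K4-K27.

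**Figure D1:**
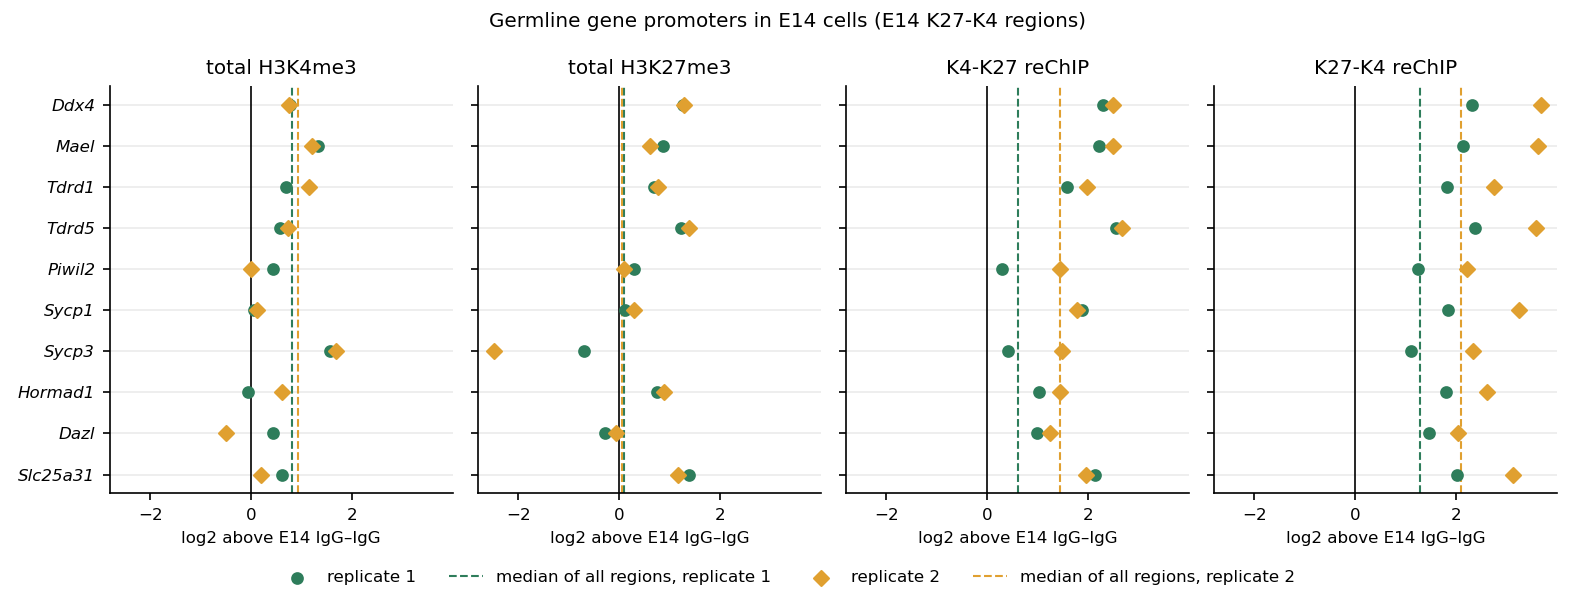
Log2 distance of the 10 germline genes from the E14 IgG–IgG reChIP at their E14 K27-K4 regions, for replicate 1 (circles) and replicate 2 (diamonds), with dashed lines at the median of all 36235 regions and the solid line at IgG–IgG. Both reChIPs lie right of IgG–IgG for all 10 genes, while Sycp3 stands highest in total H3K4me3 and lowest in total H3K27me3.

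The genes differed in which mark was visible in the total libraries. Ddx4, the RNA helicase gene also known as Vasa, stood at 1.44 and 1.66 log2 RPM per kb in K4-K27 (replicates 1 and 2) and at 1.46 and 2.85 in K27-K4, beside -0.84 in IgG–IgG. Its total H3K4me3 was -0.08 and -0.09 and its total H3K27me3 was 0.42 and 0.45. Sycp3, which builds the lateral elements of the synaptonemal complex, was the reverse. Its total H3K4me3 of 1.15 and 1.29 was the highest of the 10 genes and its total H3K27me3 of -1.11 and -2.89 the lowest, below its IgG–IgG value of -0.40. Dazl stayed near its IgG–IgG value of -0.40 in both total libraries, at 0.03 and -0.90 in H3K4me3 and at -0.69 and -0.46 in H3K27me3, yet reached 1.05 and 1.62 in K27-K4.

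The deposited tables of called regions listed more of the germline genes in WT clones than in DKO clones. The WT and DKO tables hold 26544 and 28227 regions in K4-K27, 31231 and 28540 in K27-K4, 21436 and 32352 in total H3K27me3 and 31935 and 33905 in total H3K4me3, so only in K27-K4 is the DKO table the smaller one. The WT tables held a region for 8 of 10 genes in K4-K27, 7 in K27-K4, 6 in total H3K27me3 and 3 in total H3K4me3. The DKO tables held 1 in K4-K27 (Tdrd5), 2 in K27-K4 (Dazl and Tdrd5), 0 in total H3K27me3 and 2 in total H3K4me3 (Sycp3 and Tdrd5). Tdrd5 was thus the only one of the 10 listed in both reChIP orientations in DKO clones. A missing region says that no region was called there, not that no reads were present.

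DKO and WT clones were compared per region with limma, with 2 clones per genotype, and a call needed a difference of more than 1 log2 unit together with an adjusted p (Benjamini-Hochberg, all regions) under 0.05. On the regions of the WT and DKO tables together, 4 of 7 germline genes with a region were lower in DKO in K27-K4 (Ddx4, Mael, Sycp1 and Slc25a31), where 2.24% of the 59260 regions were called lower. In K4-K27, 2 of 8 were lower (Ddx4 and Sycp1; 1.19% of 53855 regions), in total H3K4me3 1 of 3 (Ddx4; 2.47% of 64063) and in total H3K27me3 2 of 6 (Ddx4 and Sycp1; 1.78% of 53286). None of the germline genes was called higher by limma in these 4 fits, and the only difference above 0 was 0.22 at Tdrd5 in total H3K27me3. Each gene was tested at 1 region per ChIP of the joined tables, and of these 24 regions 21 have the coordinates of a WT table and 3, all of Tdrd5, those of a DKO table, so that lower values in DKO are in part built into their choice and these counts are given as a description. The shares above are over both tables, and the tables differ. On the regions of the WT tables alone 4.52% were called lower in K27-K4, 2.14% in K4-K27, 2.6% in total H3K4me3 and 3.13% in total H3K27me3, with 4 of 7, 2 of 8, 1 of 3 and 2 of 6 germline genes. Both DKO libraries lay below both WT libraries at 6 of 7 genes in K27-K4 (30.8% of all regions and 50.6% of those in the WT table), 7 of 8 in K4-K27 (19.2% and 32.9%), 1 of 3 in total H3K4me3 (12.6% and 22.4%) and 3 of 6 in total H3K27me3 (18.5% and 40.4%). Several of these counts rested on single clones. The K27-K4 count was 2 without DKO clone 53, and the K4-K27 count was 0 without WT clone 57, 0 without WT clone 58 and 1 without DKO clone 43. The total H3K4me3 count was 0 without either DKO clone, and the total H3K27me3 count was 0 without WT clone 57 or DKO clone 43 and 1 without WT clone 58 or DKO clone 53. With the libraries centred on their medians no gene was called in K4-K27 or total H3K27me3.

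The regions of the E14 K27-K4 table were called without the clones and hold all 10 genes, and the same test was therefore repeated on them, a step added after the data had been seen. E14 cells are not a knockout, so these regions favour signal present without the knockout. The genes were also chosen with earlier results of these data known, so the counts are given as a description. Here 6 of 10 genes were called lower in DKO in K27-K4 (Ddx4, Sycp1, Slc25a31, Mael, Hormad1 and Dazl), against 5.25% of the 36235 regions. In K4-K27 3 of 10 were lower (Ddx4, Sycp1 and Mael; 2.45% of regions), in total H3K4me3 the same 3 (5.69%) and in total H3K27me3 3 (Sycp1, Ddx4 and Slc25a31; 1.34%), and none was called higher. The median difference over the 10 genes was -1.35 in K27-K4, -1.41 in K4-K27, -0.87 in total H3K4me3 and -0.61 in total H3K27me3, beside medians of -0.04, -0.09, -0.06 and 0.03 over all regions. Both DKO libraries lay below both WT libraries at 8 of 10 genes in each reChIP, beside 25.6% of all regions in K27-K4 and 21.5% in K4-K27, and at 6 of 10 in each total ChIP, beside 25.8% in H3K4me3 and 16.6% in H3K27me3. Calls in the total ChIPs rested on both DKO clones: without DKO clone 43 none of the 10 genes was called lower in total H3K4me3 or total H3K27me3, and without DKO clone 53 the counts were 0 and 1. WT clone 57 was the higher WT clone at 9 of 10 genes in total H3K4me3, as it was at 83.6% of all regions. Without WT clone 57 the total H3K4me3 differences shrank to -1.49 at Mael and -0.93 at Sycp1. In K27-K4 3 genes were called without DKO clone 43 and 3 without DKO clone 53. Without trend or robust estimation of the variance, no gene was called in either reChIP on these regions, and the adjusted p of Ddx4 became 0.0537 in K27-K4 and 0.0678 in K4-K27 (limma).

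**Figure D2:**
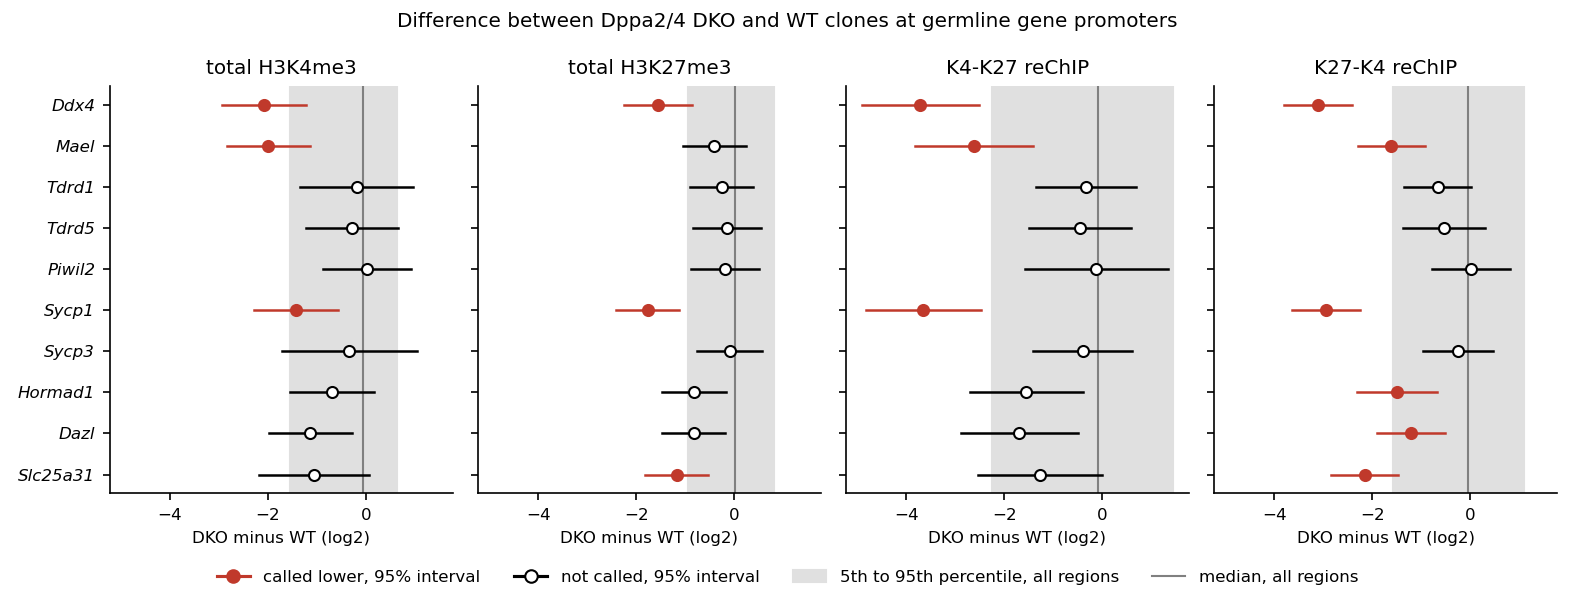
Difference between DKO and WT clones (log2, limma) at the E14 K27-K4 regions of the 10 germline genes, with 95% confidence intervals; filled points were called lower. Grey bands span the 5th to 95th percentile of all 36235 regions and the line is their median. Ddx4, Sycp1 and Mael lie left of the band in both reChIPs, and Tdrd1, Tdrd5, Piwil2 and Sycp3 lie inside it in each ChIP.

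Among the piRNA pathway genes of the set of 10, Ddx4 showed the largest differences. At its E14 region (chr13:112651201-112654050, spanning the start site at 112652310), K27-K4 was 2.83 and 1.99 log2 RPM per kb in WT clones 57 and 58 and -0.53 and -0.85 in DKO clones 43 and 53, from 322, 193, 46 and 27 reads. K4-K27 was 2.27 and 1.67 in WT and -1.74 and -1.75 in DKO, from 127, 97, 9 and 11 reads. All 4 DKO values were below the -0.28 of IgG–IgG in WT clone 57, and both WT values of each reChIP were above it. The differences were -3.10 ± 0.35 (SE, 2 clones per genotype, limma adjusted p = 2.03e-13) in K27-K4, 8.60-fold, and -3.71 ± 0.61 (limma adjusted p = 1.01e-06) in K4-K27, 13.1-fold.

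The single marks at Ddx4 were lower as well. Total H3K4me3 was 0.85 and 0.45 in WT and -1.47 and -1.41 in DKO, and total H3K27me3 was 1.89 and 1.05 in WT and 0.00 and -0.18 in DKO. WT and DKO clones did not overlap in either. The differences were -2.09 ± 0.44 (SE; limma adjusted p = 1.39e-04) and -1.56 ± 0.35 (limma adjusted p = 0.00226). Both calls were lost without DKO clone 43 (limma adjusted p = 0.356 and 0.691) and without DKO clone 53 (0.221 and 0.42), at differences between -2.29 and -1.89 in total H3K4me3 with any 1 clone left out and between -1.98 and -1.14 in total H3K27me3. The reChIP calls at this region held with any 1 clone left out. On the narrower region of the clone tables the K4-K27 call (-4.16 ± 1.11, limma adjusted p = 0.0213) was lost without WT clone 57 (adjusted p = 0.134) and without WT clone 58 (adjusted p = 0.0967).

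Mael, named for the Drosophila gene maelstrom and needed for silencing of transposons in male germ cells, was lower in DKO clones in total H3K4me3 and both reChIPs. At chr1:166236751-166239300 its K4-K27 value was 1.196 and 1.62 in WT clones 57 and 58 and -1.16 and -1.24 in DKO clones 43 and 53, from 54, 84, 12 and 14 reads. K27-K4 was 1.78 and 1.24 in WT and 0.04 and -0.24 in DKO. Total H3K4me3 was 1.23 and 0.23 in WT and -1.53 and -0.995 in DKO. In these 3 ChIPs both DKO clones were below the IgG–IgG value of 0.24, and so, in total H3K4me3, was WT clone 58. The differences were -2.61 ± 0.61 (limma adjusted p = 0.00204), -1.61 ± 0.35 (limma adjusted p = 3.33e-04) and -1.99 ± 0.44 (limma adjusted p = 3.09e-04). Total H3K27me3 was 0.77 and 0.33 in WT and 0.07 and 0.23 in DKO, and its difference of -0.40 had a 95% confidence interval from -1.05 to 0.25. The call in K4-K27 was lost without WT clone 58 (limma adjusted p = 0.15), that in K27-K4 without DKO clone 43 (0.0762) or 53 (0.222), and that in total H3K4me3 without WT clone 57 (0.0521), DKO clone 43 (0.991) or DKO clone 53 (0.164), with differences between -2.82 and -2.40, between -1.88 and -1.35 and between -2.49 and -1.49. On the clone regions of Mael K4-K27 was not called (-2.69 ± 0.89, limma adjusted p = 0.122), and the K27-K4 call (-1.72 ± 0.42, limma adjusted p = 0.00671) was lost without WT clone 57 (adjusted p = 0.079), DKO clone 43 (0.299) or DKO clone 53 (0.29).

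Tdrd5, whose tudor domain protein sits in the germ granules of male germ cells, was not called different in any ChIP. At the E14 region (chr1:156301051-156313800, a broad domain of 12750 bp), K27-K4 was 2.30 and 1.69 in WT and 1.62 and 1.31 in DKO, and K4-K27 was 2.12 and 1.65 in WT and 1.74 and 1.13 in DKO, all above the IgG–IgG value of -0.62. The differences were -0.53 (95% confidence interval -1.37 to 0.31) and -0.45 (-1.49 to 0.59). On the narrower regions of the DKO tables around the start site, K4-K27 was 3.78 and 3.10 in WT and 3.67 and 2.81 in DKO, and total H3K4me3 was 2.97 and 1.64 in WT and 2.31 and 2.11 in DKO. WT and DKO clones overlapped in both, with differences of -0.20 (-1.45 to 1.05) and -0.09 (-1.69 to 1.497).

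Tdrd1, a tudor domain gene of the same granules, was measured in regions of different width, and the differences between these regions were not tested. Its E14 region covers 8850 bp and 3 of its 4 RefSeq start sites, and there K4-K27 was 1.82 and 1.32 in WT and 1.46 and 1.01 in DKO, a difference of -0.34 (95% confidence interval -1.36 to 0.68). In the 1200 bp region of the WT table (chr19:56825701-56826900) K4-K27 was 1.57 and 2.07 in WT and -1.08 and 0.90 in DKO. Both DKO clones were below both WT clones in the narrow region, and they differed from each other by more than the WT clones did. The K4-K27 difference of -1.91 ± 0.86 there was not called (limma adjusted p = 0.246). With 1 clone left out it ran from -2.897 to -0.925. It was called with all 16 clone libraries in the fit (limma adjusted p = 0.0134). K27-K4 in a 3000 bp region was 2.18 and 1.55 in WT and 0.99 and 0.68 in DKO, a difference of -1.03 (-1.86 to -0.21) that, among the fits with 1 clone left out, was called only without WT clone 58 (limma adjusted p = 0.0127).

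Piwil2, which encodes the PIWI protein MILI, was near background in the clones. Over its region (chr14:70427251-70430100) the 4 clones ranged from -0.46 to -0.26 in K4-K27, from -0.48 to 0.71 in K27-K4 and from -0.99 to -0.29 in total H3K4me3, beside -0.24 in IgG–IgG. No WT value was more than 0.60 log2 units above IgG–IgG.

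**Figure D3:**
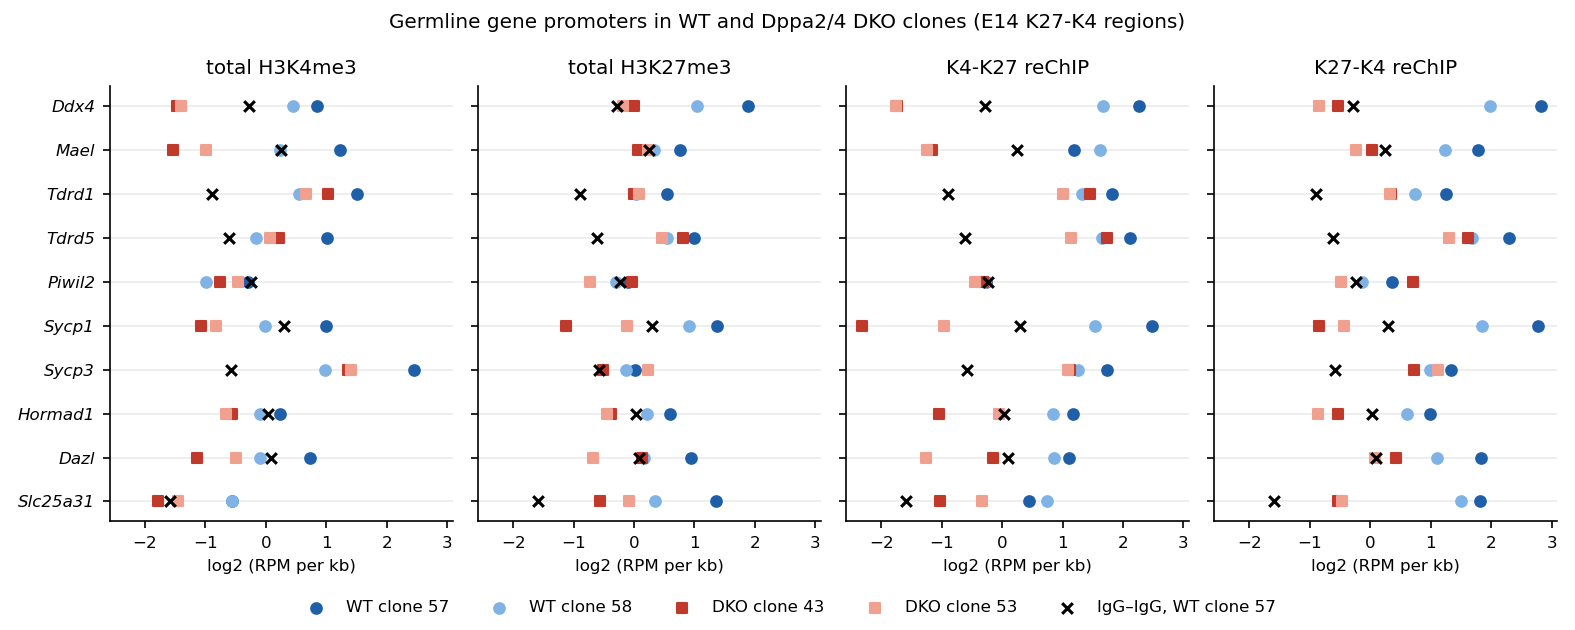
Values of the 10 germline genes (log2 RPM per kb) in WT clones 57 and 58, DKO clones 43 and 53 and the IgG–IgG reChIP of WT clone 57, at the E14 K27-K4 regions, in each ChIP. WT and DKO clones do not overlap at Ddx4, Mael, Sycp1, Hormad1, Dazl and Slc25a31 in any ChIP, and they overlap at Sycp3, Tdrd1, Tdrd5 and Piwil2 in both total ChIPs.

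Among the genes of meiotic chromosomes, Sycp1, the transverse filament of the synaptonemal complex, behaved like Ddx4. At chr3:102934801-102937650 K27-K4 was 2.77 and 1.85 in WT clones 57 and 58 and -0.85 and -0.44 in DKO clones 43 and 53, from 309, 175, 37 and 36 reads. K4-K27 was 2.48 and 1.54 in WT and -2.32 and -0.96 in DKO, from 147, 89, 6 and 19 reads. All 4 DKO values were below the IgG–IgG value of 0.29 and all 4 WT values above it. The differences were -2.95 ± 0.35 (SE; limma adjusted p = 2.92e-12), 7.74-fold, and -3.65 ± 0.60 (limma adjusted p = 8.24e-07), 12.6-fold, and only the K4-K27 call was lost with a clone left out (without WT clone 57, -3.19, adjusted p = 0.0726). On the clone regions of Sycp1 the K4-K27 call (-3.45 ± 0.88, limma adjusted p = 0.0114) was lost without WT clone 57 (adjusted p = 0.271), WT clone 58 (0.0558) or DKO clone 43 (0.113).

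Both single marks were lower at Sycp1. Total H3K27me3 was 1.37 and 0.92 in WT and -1.12 and -0.12 in DKO, a difference of -1.76 ± 0.33 (SE; limma adjusted p = 5.23e-05). Total H3K4me3 was 0.99 and -0.02 in WT and -1.07 and -0.82 in DKO, a difference of -1.43 ± 0.44 (limma adjusted p = 0.0231). WT clone 58 stood below IgG–IgG in total H3K4me3, where WT clone 57 stood above it. The call in total H3K4me3 was lost without WT clone 57 (-0.93, limma adjusted p = 0.236), DKO clone 43 (adjusted p = 1) or DKO clone 53 (0.72), and that in total H3K27me3 without DKO clone 43 (-1.26, limma adjusted p = 0.91).

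Sycp3, which acts in the same structure as Sycp1, was not called different in any ChIP. At chr10:88459051-88461150 total H3K4me3 was 2.46 and 0.98 in WT and 1.36 and 1.41 in DKO, so that both DKO clones lay between the WT clones, and the difference was -0.34 (95% confidence interval -1.71 to 1.04). K4-K27 was 1.74 and 1.26 in WT and 1.12 and 1.09 in DKO, and K27-K4 was 1.34 and 0.99 in WT and 0.73 and 1.12 in DKO, with differences of -0.40 (-1.42 to 0.62) and -0.24 (-0.96 to 0.48). Total H3K27me3 ranged from -0.51 to 0.22 over the 4 clones, beside -0.58 in IgG–IgG.

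Hormad1, which marks unsynapsed chromosome axes, had weaker signal that was lower in DKO. K27-K4 was 0.99 and 0.60 in WT and -0.54 and -0.86 in DKO (chr3:95558551-95561100; from 80, 66, 41 and 24 reads), a difference of -1.49 ± 0.41 (limma adjusted p = 0.00949). K4-K27 was 1.17 and 0.84 in WT and -1.05 and -0.05 in DKO, a difference of -1.55 ± 0.59 that was not called (limma adjusted p = 0.151). WT and DKO clones did not overlap in any of the 4 ChIPs. The K27-K4 call was lost without WT clone 57 (-1.30, limma adjusted p = 0.124), DKO clone 43 (-1.66, 0.0523) or DKO clone 53 (-1.33, 0.176).

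Dazl, a translational regulator that germ cells need to enter gametogenesis, was lower in DKO, in K27-K4 by a smaller margin than Hormad1. K27-K4 was 1.83 and 1.11 in WT and 0.43 and 0.08 in DKO (chr17:50292751-50295900), a difference of -1.21 ± 0.35 (SE; limma adjusted p = 0.0165), 2.32-fold. K4-K27 was 1.11 and 0.85 in WT and -0.15 and -1.27 in DKO, a difference of -1.69 ± 0.61 that was not called (limma adjusted p = 0.112). Total H3K4me3 was 0.73 and -0.10 in WT and -1.13 and -0.50 in DKO, also lower in both DKO clones and not called (limma adjusted p = 0.117). The K27-K4 call did not survive the loss of WT clone 57 (-0.86, limma adjusted p = 0.128), DKO clone 43 (-1.39, 0.308) or DKO clone 53 (-1.04, 0.661), and on the WT table's region of Dazl the difference of -1.23 ± 0.45 was not called (limma adjusted p = 0.135).

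Slc25a31, an ADP/ATP carrier of sperm mitochondria, was lower in DKO clones in K27-K4 and total H3K27me3. K27-K4 was 1.81 and 1.498 in WT and -0.54 and -0.47 in DKO (chr3:40707301-40711350; from 225, 195, 65 and 50 reads), a difference of -2.16 ± 0.35 (limma adjusted p = 3.69e-07), and this call held with any 1 clone left out (on the clone regions it was lost without DKO clone 53, -2.20, limma adjusted p = 0.0728). Total H3K27me3 was 1.36 and 0.34 in WT and -0.57 and -0.08 in DKO, a difference of -1.17 ± 0.33 (limma adjusted p = 0.0294) that was lost without WT clone 57 (-0.66, limma adjusted p = 0.436), DKO clone 43 (-0.93, 1) or DKO clone 53 (-1.42, 0.2). Total H3K4me3 was -0.56 and -0.56 in WT and -1.78 and -1.45 in DKO, and K4-K27 was 0.45 and 0.75 in WT and -1.02 and -0.33 in DKO. Both were lower in DKO clones without being called, and unlike at Ddx4 the DKO clones stayed above the IgG–IgG value of -1.59 in every ChIP, apart from DKO clone 43 in total H3K4me3.

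The difference between genotypes in the K27-K4 reChIP was set beside that in K4-K27 with a term for genotype by orientation. Among the 9 genes in both E14 reChIP tables, the K27-K4 difference minus the K4-K27 difference was 0.996 ± 0.65 log2 units (SE) at Mael, 0.70 ± 0.65 at Sycp1, 0.61 ± 0.64 at Ddx4 and -0.89 ± 0.67 at Slc25a31, a positive value meaning that K4-K27 fell further. On the clone regions it was 0.97 ± 0.71 at Mael and -1.199 ± 0.81 at Slc25a31. None of the 9 genes had an unadjusted p under 0.05. On the clone regions limma called 0 of the 6 genes with a region in both orientations, where 39 of 23679 regions (0.165%) were called, and 0 of the 6 had an unadjusted p under 0.05.

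**Figure D4:**
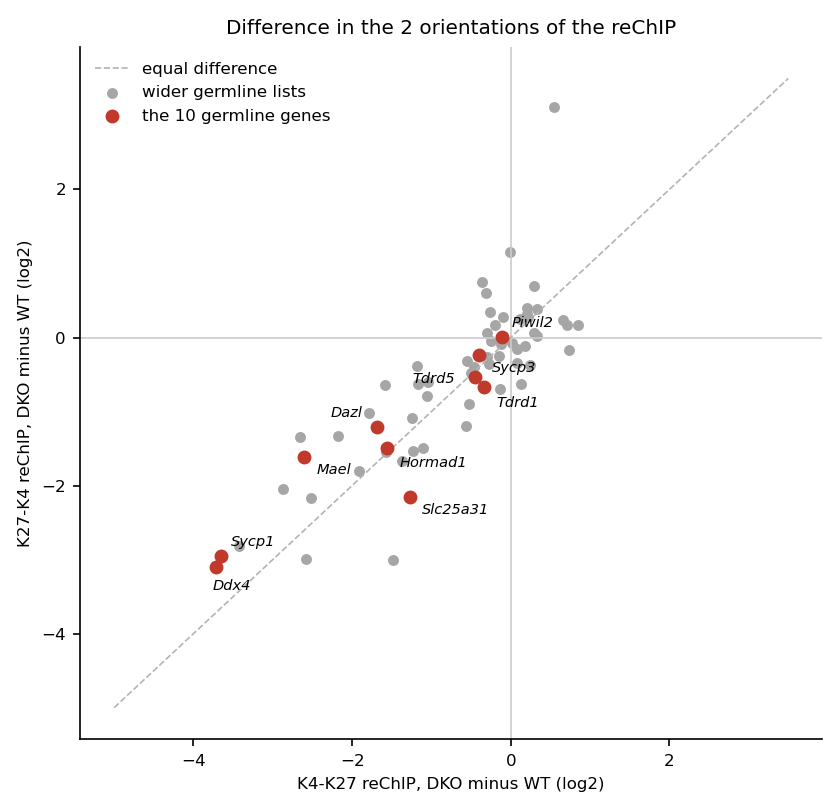
Difference between DKO and WT clones (log2) in K4-K27 (horizontal) and K27-K4 (vertical) for the 10 germline genes (red, named) and for 56 other germline genes with an E14 K27-K4 region (grey); the dashed line marks equal difference. Ddx4, Sycp1 and Mael lie at -2.61 or below in K4-K27, while Sycp3, Tdrd1, Tdrd5 and Piwil2 lie between -0.66 and 0.01 in both orientations.

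The other genes of the same pathways were read from 4 lists with 59 genes: 10 of the meiotic chromosome axis and cohesin, 17 of meiotic recombination, 16 of the piRNA pathway and germ granules and 16 germ cell regulators. On the clone regions 8 of 43 genes with a region were lower in K27-K4 (2.24% of all regions), 2 of 42 in K4-K27 (1.19%), 4 of 40 in total H3K4me3 (2.47%) and 2 of 30 in total H3K27me3 (1.78%), and none was called higher. All 16 of these calls lay among the 87 regions with coordinates of a WT table and none among the 68 of a DKO table only, so that here too the choice of regions favours lower values, and the shares of the WT tables given above are the closer background. The genes called in K27-K4 were 3 of the axis list (Syce1, Rad21l and Tex12), 2 of the piRNA list (Tdrd6 and Henmt1), 3 regulators (Sohlh2, Nobox and Taf7l) and none of the recombination list. The median differences of these 4 lists in K27-K4 were -0.39, -0.75, -0.72 and -0.28, beside -0.15 over all regions. On the E14 regions they were 0.12, -0.37, -0.44 and -0.08, beside -0.04, so that of the axis list changed sign. The K27-K4 count of 8 became 3 without WT clone 57, 15 without WT clone 58, 2 without DKO clone 43 and 3 without DKO clone 53. The K4-K27 count became 0 without WT clone 57 and 1 without DKO clone 53. The total H3K4me3 count became 2 and 9 without WT clones 57 and 58 and 0 and 1 without DKO clones 43 and 53, and that of total H3K27me3 became 0, 1, 0 and 0 in the same order. On the E14 regions 12 of 56 genes were lower in K27-K4 (5.25% of all regions), 5 in K4-K27 (2.45%), 4 in total H3K4me3 (5.69%) and 4 in total H3K27me3 (1.34%), and 1 gene, Terb1 of meiotic telomere attachment (named after its value was seen), was called higher in total H3K27me3 (1.10 ± 0.33, limma adjusted p = 0.0467), where 0.392% of all regions were called higher.

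Tdrd6, a tudor domain gene of the chromatoid body, fell in all 4 ChIPs on the clone regions. Its K4-K27 value was 3.96 and 3.32 in WT clones 57 and 58 and -1.002 and -0.82 in DKO clones 43 and 53, from 409, 305, 15 and 21 reads, and its difference of -4.55 ± 0.68 (limma adjusted p = 8.46e-08) stands beside the -4.16 of Ddx4. Syce1, a central element protein that binds the Sycp1 filament, was 2.53 and 2.05 in WT and -0.93 and -1.78 in DKO in K27-K4, a difference of -3.64 ± 0.58 (limma adjusted p = 4.16e-06). Sohlh2, a transcription factor of early spermatogonia and oocytes, was called in total H3K4me3, from 2.37 and 1.03 in WT to -2.03 and -1.18 in DKO (-3.31 ± 0.57, limma adjusted p = 1.43e-05). Nobox, an oocyte transcription factor, changed by -3.32 ± 0.91 in K27-K4 (limma adjusted p = 0.0257) and Taf7l, a TFIID subunit of the testis, by -2.12 ± 0.42 (limma adjusted p = 2.42e-04). Henmt1, the methyltransferase of piRNA ends, changed by -2.07 ± 0.48 in K27-K4 (limma adjusted p = 0.00312) and by -1.72 ± 0.53 in total H3K4me3 (limma adjusted p = 0.0455). Rad21l, a meiotic cohesin, and Tex12, of the central element, changed by -1.53 ± 0.42 and -1.499 ± 0.41 in K27-K4 (limma adjusted p = 0.0264 and 0.0268). Of all these calls only that of Syce1 in K27-K4 held with each clone left out in turn. The K4-K27 call of Tdrd6 was lost without WT clone 57 (-4.23, limma adjusted p = 0.0508), its K27-K4 call without DKO clone 43 (-2.86, limma adjusted p = 0.0641) and the total H3K4me3 call of Sohlh2 without WT clone 57 (-2.63, 0.0543) or DKO clone 43 (-2.88, 0.646). Each lost call kept its direction.

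The genes whose values over the 16 clone libraries were most like those of Ddx4 were no germline genes. Among 10067 RefSeq genes with a promoter region in the K27-K4 tables, and with each ChIP centred on its mean over the 4 clones, Pou3f4, Cdcp1 and Dgkg each had a Pearson r of 0.99 with Ddx4. For Dazl they were Grik1 (0.97), Anks6 (0.97) and Dnajb3 (0.97). The libraries share the contrast of genotypes and their depth, so that these values describe a shared profile and no more. In K27-K4 the differences were -3.70 at Pou3f4, -3.38 at Cdcp1 and -3.45 at Dgkg, and -1.87 at Grik1, -1.11 at Anks6 and -2.07 at Dnajb3.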

How the data were processed

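Deposited tables of the E14 cells and of the WT and DKO clones were used, 12 in all with 240 columns of values; 32 columns that belong to no sample of the series were left out. The authors trimmed reads with Trim Galore 0.6.6, aligned them to mm10 with BWA 0.7.13 and marked duplicates with Picard 2.6.0 (versions from the submitters' processing notes and the study's methods). They quantified called regions in SeqMonk from alignments with a mapping quality over 20, extended by 200 bp and with duplicates kept. The deposited values are log2 RPM per kb, with 0 reads entered as 0.9 reads. Per the study's methods, peaks were called by EPIC2 in each replicate against IgG–IgG, filtered and intersected between replicates; how the regions of the clone tables were derived from such peaks is not given in the sources used here. Whole reads could be recovered, with 100% of values within 0.1 of a whole number. Duplicated reads are not independent molecules, and reads give counting error only.

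Regions of the WT and DKO tables of a ChIP were joined, each distinct pair of coordinates being 1 region, and tested with limma 3.58.1 in R 4.3.3 (lmFit and eBayes, trend and robust) using the 4 clone libraries of that ChIP. A count test had been planned for the case of count tables, but the deposited unit is log2, so limma was taken. Its voom version on the recovered reads served as an alternative. P-values were adjusted by Benjamini-Hochberg over all regions tested. The variance of each region is drawn towards a trend over all regions. The p-values therefore rest on this pooled variance and do not measure the spread of the 2 clones per genotype at a single gene. An exact permutation test of 2 against 2 cannot go below 0.333 and was not used. With 200 regions shifted by 3 log2 units in simulated data, limma recovered 40% in total H3K4me3, 92% in total H3K27me3, 41% in K4-K27 and 48% in K27-K4 on the clone regions, and 58.5%, 82.5%, 49.5% and 63% on the E14 K27-K4 regions. It also called unchanged regions. In the same order of ChIPs these were 10, 21, 9 and 7 on the clone regions and 11, 11, 10 and 22 on the E14 K27-K4 regions.

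The labels give both reChIPs of a clone its clone number. Their deviations from the genotype mean correlated at 0.14 in WT and 0.11 in DKO over 23679 regions, and the clone was used as a block in an alternative of the orientation test.

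All 10 genes were named, of the wider lists those called in any of the 4 fits on the clone regions, and the 3 genes most like Ddx4 and Dazl. The genes and lists were chosen with earlier results of these data known. Python 3.11.15, numpy 2.4.6, pandas 2.3.3, scipy 1.17.1, matplotlib 3.10.9 and samtools 1.23.1 were used. Alternatives covered scaling, the variance model, voom, a filter on the lowest quartile, the threshold, the libraries in the fit, the regions, the promoter window (1 kb upstream and 100 bp downstream) and each clone left out.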

Additional observations from a re-analysis of the deposited data

How the results depend on the processing

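Of 829 alternative values for single genes, 706 kept direction and call, 85 lost a call, 11 gained one and 27 changed sign, all of the last uncalled, and for changed counts the cause was not tested unless the setting itself removes regions or libraries. Signs changed with median centring at Tdrd1 (0.12) and Tdrd5 (0.026) in total H3K4me3, Piwil2 in K4-K27 (0.065) and Tdrd5 in K27-K4 (0.10, clone regions), and with quantile normalization at Tdrd5 (0.12 and 0.197) and Piwil2 (0.15).

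Among germline genes on the clone regions, total H3K4me3 gave 0 without the lowest quartile of regions, K4-K27 gave 1, and K4-K27 gave 4 with all 16 clone libraries in the fit. Total H3K27me3 gave 0 after median centring, quantile normalization, with all 16 libraries, on regions that do not overlap and on the E14 regions of that ChIP, and 1 without trend and robust estimation. K4-K27 gave 0 after either scaling, and K27-K4 gave 2 without trend and robust estimation. The DKO table alone gave 0 of the 2, 1 and 2 genes with a region in total H3K4me3, K4-K27 and K27-K4 and held none in total H3K27me3, so nothing was tested there (0). On the E14 K27-K4 regions, dropping trend and robust estimation gave 0 in both reChIPs and total H3K27me3, and the fit of 16 libraries gave 0 in both total ChIPs, 5 in K4-K27 and 3 in K27-K4.

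Over all regions, called counts in total H3K4me3 were 1745, and 3899 after centring, 3040 after quantile normalization, 336 without the lowest quartile, 735 with 16 libraries, 829 and 137 on the WT and DKO tables and 457 on E14 regions of that ChIP. In total H3K27me3 they were 1468, and 0, 1, 314, 0, 675, 0 and 210 under the same settings, with 427 by voom, 179 without overlapping regions and 627 on the E14 K27-K4 regions. In K4-K27 they were 643, and 7715 without trend and robust estimation, 7602 with 16 libraries, 55 on the DKO table, 1164 on the E14 K27-K4 regions and 973 on E14 regions of that ChIP. In K27-K4 they were 1341, and 85 on the DKO table, 671 without overlapping regions and 2230 on the E14 K27-K4 regions. With the clone as a replicate block the orientation test called 18 regions in place of 39, 0 after centring, 114 without trend and robust estimation and 18 without the lowest quartile, and the block changed no call of a germline gene.

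With 1 clone left out, called regions ranged from 74 to 6018 in total H3K4me3, 133 to 650 in total H3K27me3, 243 to 558 in K4-K27, 482 to 8630 in K27-K4 and 0 to 352 in the orientation test. Without WT clone 57 calls higher in DKO outnumbered those lower on the clone regions in all ChIPs but K4-K27: 479 lower and 1256 higher in total H3K4me3 (1582 and 163 with all clones), 82 and 568 in total H3K27me3 (948 and 520) and 1853 and 2277 in K27-K4 (1325 and 16), against 189 and 72 in K4-K27 (640 and 3). On the E14 K27-K4 regions it left 830 and 827, 174 and 528, 1295 and 1078 and 215 and 335 in the same order. Called germline genes ranged from 0 to 1, 0 to 1, 0 to 2 and 2 to 6 on the clone regions and from 0 to 4, 0 to 4, 2 to 3 and 3 to 6 on the E14 K27-K4 regions. Among the wider germline genes, the count of 8 lower in K27-K4 became 4 after median centring, 4 after quantile normalization, 3 without trend and robust estimation and 4 with 16 libraries. That of 2 in K4-K27 became 1 after quantile normalization, 9 without trend and robust estimation and 12 with 16 libraries, that of 2 in total H3K27me3 became 0 after either scaling or with 16 libraries, 4 by voom and 1 without the lowest quartile, and that of 4 in total H3K4me3 became 2 without the lowest quartile. In E14, 7 to 10 genes were marked in both orientations with 1 replicate left out, and 3 when at least 2 log2 units were asked of both replicates.

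Values of 4 genes that were not called crossed 0 with 1 clone left out. In total H3K4me3 they ran from -1.07 to 0.53 (Sycp3) and -0.76 to 0.57 (Tdrd5) on the clone regions, and from -1.07 to 0.41 (Sycp3), -0.66 to 0.29 (Tdrd1), -0.86 to 0.31 (Tdrd5) and -0.32 to 0.38 (Piwil2) on the E14 regions. In total H3K27me3 they ran from -0.029 to 0.47 (Tdrd5, clone regions), -0.45 to 0.28 (Sycp3), -0.500 to 0.009 (Tdrd1), -0.36 to 0.083 (Tdrd5) and -0.53 to 0.17 (Piwil2). In the reChIPs they ran from -0.63 to 0.23 (Tdrd5, K4-K27, clone regions), -0.39 to 0.24 (Tdrd5, K27-K4, clone regions) and -0.59 to 0.61 (Piwil2, K27-K4).

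The reChIP values of DKO clones at Ddx4 and Sycp1 rest on as few as 6 reads.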
